A study of Mus musculus with 2 samples.

Results

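The enzymes that make prostaglandins and leukotrienes are encoded by 10 genes examined here, chosen by symbol among the 24346 genes of the deposited expression values. They are the cyclooxygenases Ptgs1 and Ptgs2, the prostaglandin synthases Ptges, Ptgis and Hpgds, the 5-lipoxygenase route of Alox5, Alox5ap, Lta4h and Ltc4s, and Alox15 of the 15-lipoxygenase route. All 10 were found. Bulk mRNA was sequenced from skin wounds of WT and PU.1-/- (labelled PU.1 KO) C57BL/6J neonates, with 1 library per genotype. The pups were littermates that received a full-thickness 1-cm dorsal incision at 1 day of age, and tissue was taken 24 h later. PU.1, encoded by Spi1, is a transcription factor that blood cell development requires, and mice without it are known for lacking macrophages and mature neutrophils. The study also describes these mice as lacking mast cells and T cells. The deletion is carried by the whole animal, not by one cell type, and the number of pups behind each library is not given in the sources used here.

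Prostaglandins and leukotrienes are short-lived lipid signals made from arachidonic acid, which phospholipases A2 release from membranes. Cyclooxygenases turn it into an unstable intermediate that terminal synthases convert to prostaglandin E2, prostacyclin or prostaglandin D2. In the other branch, 5-lipoxygenase acts with its partner protein on the nuclear membrane to make leukotriene A4, from which leukotriene B4, an attractant of neutrophils, or the cysteinyl leukotrienes are formed. In skin, prostaglandins come from epithelial, stromal and blood-derived cells, while leukotriene synthesis is known mainly from myeloid cells and mast cells.

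In the PU.1-/- wound the initiating pair of the leukotriene branch was at or near 0, while the remaining enzymes were present at between 62.2% and 142% of their WT level, leaving aside Alox15, which was barely detected. Alox5ap fell from 87.3 to 0.313 FPKM and Alox5 from 4.49 FPKM to a value listed at 0. FPKM scales the sequenced fragments of a gene to the length of its transcript and to the size of the library, so levels of different genes can be compared. Genes whose FPKM differed at least 2-fold between the libraries, with values below 0.1 raised to 0.1, are called lower or higher, and a gene needs 0.2 FPKM in 1 library or both to be counted. By this rule 2 of the 10 genes were lower and none was higher, where 6.83% of the 15481 genes that could be counted were lower and 3.65% were higher. Among genes of at least 4 FPKM, a level that 9 of the 10 reached, 3.34% were lower and 1.08% higher. A 1.5-fold limit, passed by 11.2% of the countable genes downward and 8.27% upward, added Ptgs1 and Ltc4s to the lower members, and a 3-fold limit, passed by 4.4% and 0.969%, left Alox5ap and Alox5. Taken as PU.1-/- over WT, the 10 genes had a median log2 ratio of -0.50, against -0.01 over the genes that could be counted. With 1 library per genotype no test across animals exists, and the intervals given below are 95% intervals of counting error alone, from read numbers estimated as described under the processing. In bulk tissue, fewer cells of a type and less RNA per cell cannot be told apart.

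**Figure D1:**
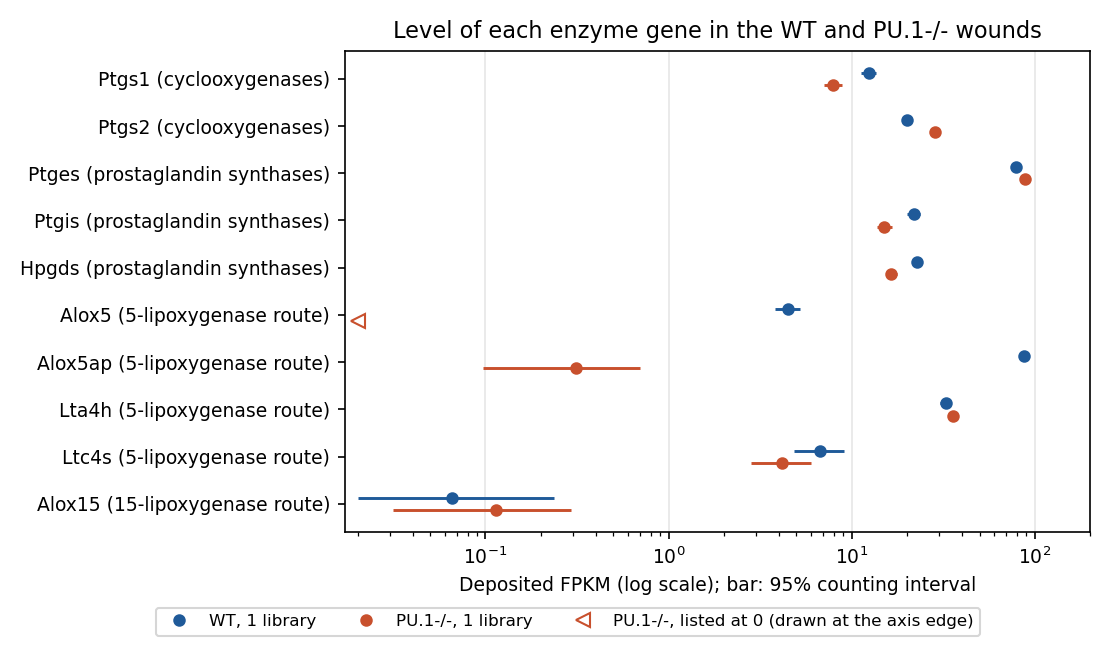
Deposited FPKM (log axis) of each of the 10 enzyme genes in the WT library (blue) and the PU.1-/- library (orange), 1 library each, with bars for the 95% counting interval and an open triangle at the axis edge for the value listed at 0. Alox5ap and Alox5 are the only genes whose points lie far apart, at 87.3 against 0.313 FPKM and at 4.49 FPKM against a value listed at 0.

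Both libraries held transcripts of skin, with the keratinocyte genes Krt14 at 4659 FPKM in WT and 5195 in PU.1-/- and the fibroblast gene Dcn at 690 and 959 FPKM. Spi1 itself stood at 35.4 FPKM in WT and 1.45 in PU.1-/-. The estimated depth was 1.38e+07 fragments for WT and 1.59e+07 for PU.1-/-. The libraries also differed in ways other than the genotype. All 4 Y-linked genes examined were listed at 0 in PU.1-/- and summed to 65.8 FPKM in WT, so that sex and genotype cannot be told apart. The 8 skeletal muscle markers had log2 ratios from 0.60 to 1.04, with 2 past the rule, and the part of tissue composition in the values below was not tested.

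Sequences before a transcription start are shown for 4 of the genes, since PU.1 binds purine-rich DNA and these genes had different ratios between the genotypes. The windows are the 250 bases upstream of the 1 start per gene that the RefSeq promoter table holds for these genes on GRCm38, the assembly of mm10, on the strand of the gene. That start is the outer end of the RefSeq gene span for Alox5 and Ptgs2, but an inner start 251 bases inside the span for Hpgds and 13684 bases inside it for Ptgs1. Capitals mark the letters GAGGAA, the PU box, searched on both strands. Alox5 (chr6:116461179-116461428, minus strand) is the gene listed at 0, Ptgs1 (chr2:36230176-36230425, plus strand) and Hpgds (chr6:65144731-65144980, minus strand) stood below their WT level, and Ptgs2 (chr1:150099781-150100030, plus strand) stood above it.
Alox5: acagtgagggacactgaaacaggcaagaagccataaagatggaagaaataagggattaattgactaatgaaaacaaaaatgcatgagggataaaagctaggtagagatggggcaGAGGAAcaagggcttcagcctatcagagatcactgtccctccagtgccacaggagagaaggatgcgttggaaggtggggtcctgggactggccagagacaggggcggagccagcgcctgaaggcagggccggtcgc
Ptgs1: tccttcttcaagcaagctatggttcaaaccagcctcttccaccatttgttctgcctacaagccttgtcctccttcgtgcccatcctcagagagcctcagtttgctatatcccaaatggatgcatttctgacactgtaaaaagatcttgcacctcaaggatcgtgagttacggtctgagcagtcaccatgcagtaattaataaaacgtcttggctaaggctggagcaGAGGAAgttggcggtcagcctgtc
Hpgds: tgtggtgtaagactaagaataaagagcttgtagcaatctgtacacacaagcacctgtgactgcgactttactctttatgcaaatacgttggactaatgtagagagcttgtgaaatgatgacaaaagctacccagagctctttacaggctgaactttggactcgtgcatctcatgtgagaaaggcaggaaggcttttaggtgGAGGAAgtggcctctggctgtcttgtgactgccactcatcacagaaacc
Ptgs2: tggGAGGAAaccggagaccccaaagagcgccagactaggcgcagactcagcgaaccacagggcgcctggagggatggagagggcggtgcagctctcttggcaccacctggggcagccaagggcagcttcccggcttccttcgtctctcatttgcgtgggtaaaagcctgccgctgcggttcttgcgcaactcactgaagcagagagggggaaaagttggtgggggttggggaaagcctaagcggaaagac

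The PU box began 136 bases before the start used for Alox5 and 247 bases before that for Ptgs2. It began 24 bases before the inner start of Ptgs1 and 49 bases before that of Hpgds, within the gene spans. Of the 7 genes with a window in the RefSeq table, 6 held the letters and Ltc4s did not. Lta4h and Ptges, with ratios of 1.09 and 1.12, held them on the opposite strand, 126 bases before the start of Lta4h and 149 bases before an inner start of Ptges that lies 27723 bases inside its span. These 6 letters were found in 23.3% of all 32851 windows of this length. They stood in windows of genes on both sides of their WT level.

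Alox5ap and Alox5 serve the first step of leukotriene synthesis. Alox5ap, on chromosome 5 from 149265004 to 149288153, encodes the membrane protein that presents arachidonic acid to 5-lipoxygenase. It had 87.3 FPKM in WT but 0.313 in PU.1-/-. The estimated reads were 1268 and 5, which gave a 279-fold lower level with an interval from 124 to 898. In WT it was the most abundant of the 10 genes and made up 30.4% of their summed FPKM, while in PU.1-/- it made up 0.159%. Of the genes of at least 4 FPKM, 0.355% had a log2 ratio as low as that of Alox5ap or lower.
The gene of the enzyme itself was much less abundant than that of its partner. Alox5, on chromosome 6 from 116410071 to 116461178, encodes 5-lipoxygenase. It had 4.49 FPKM in WT, from an estimated 163 reads, and was listed at 0 in PU.1-/-, where 3 reads would have given 0.0721 FPKM. No fold is given here for Alox5, since a listed 0 can also be an estimate that failed. Where a log2 ratio of Alox5 enters a median, a figure or the alternatives tried, its PU.1-/- value is set by the floor or pseudocount. Among 87 genes of ribosomal proteins and of respiratory complex I, which cells use generally, Ndufs5 was the only one below 0.1 FPKM in a single library, at 0.00156 FPKM in WT and 15.8 in PU.1-/-.

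With 2 libraries the pattern of a gene is a pair of levels. The 3 genes closest to Alox5ap in the plane of the log2 levels were Ppbp, with 72.0 FPKM in WT and 0.217 in PU.1-/-, Ifitm6, with 129 and 0.383 FPKM, and Lyz2, with 85.5 and 0.520 FPKM. Their distances to Alox5ap were 0.60, 0.64 and 0.73 log2 units. Lyz2 encodes the lysozyme of macrophages and neutrophils, and Ppbp a chemokine known from platelets.

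The enzymes that use leukotriene A4 were expressed in both wounds. Lta4h, on chromosome 10 from 93453396 to 93484896, encodes the hydrolase that makes leukotriene B4. It had 32.7 FPKM in WT and 35.7 in PU.1-/-, a ratio of 1.09 with an interval from 0.996 to 1.20, so that a difference was not detectable at this depth. Ltc4s, on chromosome 11 from 50236461 to 50238532, encodes the synthase of leukotriene C4, the parent of the cysteinyl leukotrienes. It had 6.74 FPKM in WT and 4.19 in PU.1-/-, or 62.2% of the WT level. These short transcripts gave only 42 and 30 estimated reads, and the interval of the ratio, from 0.376 to 1.02, reached 1. With the shortest annotated transcript of Ltc4s in place of the longest, the interval was 0.333 to 1.20. The PU.1-/- wound held transcripts for both later steps of the branch, while those of the first step were at or near 0.

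The cyclooxygenases stood on opposite sides of their WT level. Ptgs1, on chromosome 2 from 36216742 to 36258593, encodes cyclooxygenase-1, the form that most tissues express at rest. It had 12.4 FPKM in WT and 7.93 in PU.1-/-, a ratio of 0.640 (interval 0.555 to 0.739). Ptgs2, on chromosome 1 from 150100031 to 150108234, encodes cyclooxygenase-2, which injury and cytokines induce. It had 20.01 FPKM in WT and 28.4 in PU.1-/-, a ratio of 1.42 (interval 1.32 to 1.53). Neither reached the 2-fold rule, and both intervals lay away from 1. Of the genes of at least 4 FPKM, 5.46% had a log2 ratio as low as that of Ptgs1 or lower, and 94.8% had one as low as that of Ptgs2 or lower.
The proportion of the pair, which follows from these opposite differences, was also computed within each library. Ptgs2 was 1.61 times as abundant as Ptgs1 in WT (interval 1.45 to 1.799) and 3.58 times as abundant in PU.1-/- (interval 3.19 to 4.02). The PU.1-/- ratio was 2.22 times the WT ratio, with an interval from 1.89 to 2.60. The spread of this ratio between animals is not known.

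**Figure D2:**
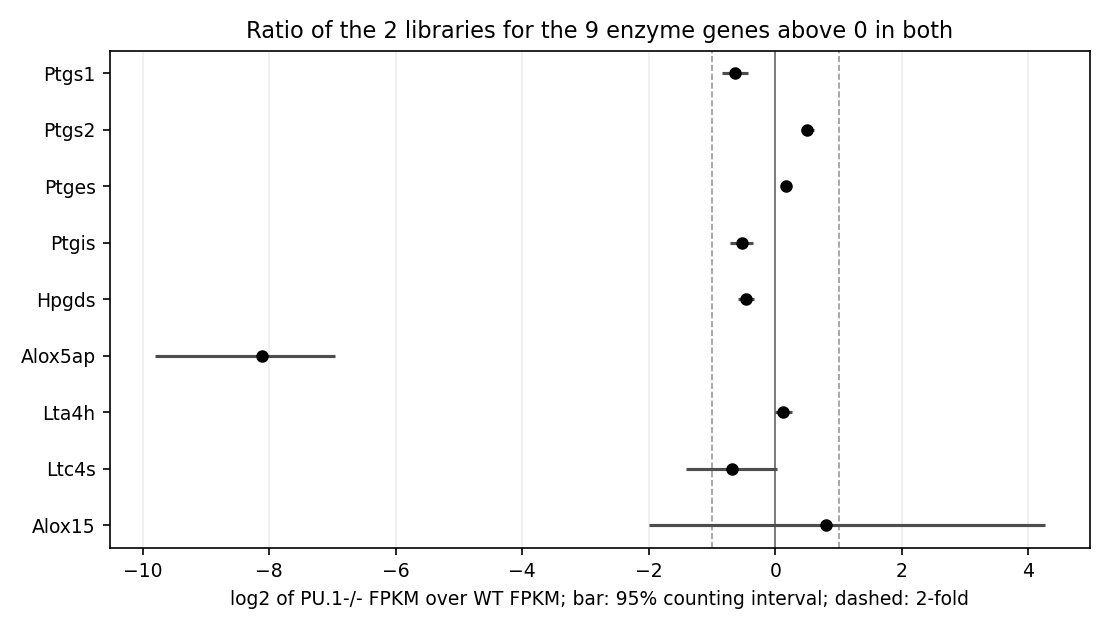
Log2 ratio of PU.1-/- over WT FPKM for the 9 enzyme genes above 0 in both libraries, with bars for the 95% counting interval and dashed lines at a 2-fold difference. Alox5ap lies beyond the lines, the bars of Ptgs2 and Ptges lie wholly above 0, and the wide bar of Alox15 comes from 2 and 4 estimated reads.

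The terminal prostaglandin synthases showed no loss like that of Alox5ap. Ptges, on chromosome 2 from 30889471 to 30931020, encodes the inducible synthase of prostaglandin E2 that works with cyclooxygenase-2. It had 79.3 FPKM in WT and 88.9 in PU.1-/-, a ratio of 1.12 (interval 1.07 to 1.17). It was the most abundant of the 10 genes in PU.1-/-, with 45.1% of their summed FPKM against 27.6% in WT. Ptgis, on chromosome 2 from 167203194 to 167252150, encodes prostacyclin synthase of vessel walls. It had 21.9 FPKM in WT and 15.1 in PU.1-/-, a ratio of 0.692 (interval 0.611 to 0.784). Beside it, the 10 endothelial markers had a summed level of 238 FPKM in WT and 262 in PU.1-/-, and the 8 markers of pericytes and smooth muscle summed to 560.4 and 856 FPKM. The latter went both ways, with log2 ratios from -0.50 (Cnn1) to 0.82 (Des, which skeletal muscle also expresses) and a median of -0.06.
Hpgds, on chromosome 6 from 65117293 to 65144981, encodes the prostaglandin D2 synthase of blood-derived cells, known above all from mast cells. It had 22.7 FPKM in WT and 16.5 in PU.1-/-, a ratio of 0.726 (interval 0.662 to 0.795). The mast cell markers Cma1, a chymase, and Cpa3, a carboxypeptidase, went from 223 to 0.436 FPKM and from 150.3 to 0.303 FPKM in the same libraries. Hpgds transcripts were measured in a wound with few transcripts of mast cell proteases, and the cells that hold them were not identified here.

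Alox15, on chromosome 11 from 70344147 to 70390538, encodes the enzyme known in mice as 12/15-lipoxygenase, which is typical of resident macrophages and eosinophils. It had 0.0654 FPKM in WT and 0.114 in PU.1-/-, which are 2 and 4 estimated reads. The ratio of 1.74 had an interval from 0.250 to 19.3, so that no direction can be read from it. The 15-lipoxygenase route was close to the limit of detection in both wounds.

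The order of the genes by level changed through the loss of Alox5ap, the listed 0 of Alox5 and the move of Ptgs2 past Ptgis and Hpgds. In WT the order ran Alox5ap, Ptges, Lta4h, Hpgds, Ptgis, Ptgs2, Ptgs1, Ltc4s, Alox5 and Alox15. In WT the counting intervals of Hpgds and Ptgis, of Ptgis and Ptgs2, and of Ltc4s and Alox5 overlapped, so that these neighbours are not ordered at this depth. In PU.1-/- the order was Ptges, Lta4h, Ptgs2, Hpgds, Ptgis, Ptgs1, Ltc4s, Alox5ap, Alox15 and Alox5, with overlaps between Hpgds and Ptgis, Alox5ap and Alox15, and Alox15 and Alox5, but not between Alox5ap and Alox5. The interval of Ptgs2 lay below that of Hpgds in WT, at 18.9 to 21.2 against 21.4 to 24.2 FPKM. In PU.1-/- it lay above, at 27.2 to 29.7 against 15.4 to 17.6 FPKM. The summed FPKM of the 10 genes was 287 in WT and 197 in PU.1-/-. Without Alox5ap the sums were nearly equal, at 200.2 and 197 FPKM. Of the 10 genes, 4 had an interval wholly below a ratio of 1, 2 had one wholly above it and 3 had one that held 1, while Alox5 has none. Such intervals are narrow at these read numbers: of the 9935 genes of at least 4 FPKM that have one, 25.5% lay wholly below 1 and 27.2% wholly above.

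The other genes of the pathway were described from a list of 59, of which 54 could be counted. By the 2-fold rule 6 of them were lower, or 11.1%, and 1 was higher, where the shares over all genes that could be counted were 6.83% and 3.65%. The list of 59 had a median log2 ratio of -0.11. The lower genes were Pla2g7, Tbxas1, Ggt1, Dpep2, Cyp4f18 and Cysltr1.
They were 3 of the 7 other leukotriene enzymes, 1 of the 4 countable leukotriene receptors, 1 of 16 countable phospholipases and 1 of the 7 other prostanoid synthases. Cysltr1, the main receptor of the cysteinyl leukotrienes, had 0.943 FPKM in WT and 0.121 in PU.1-/-, a 7.79-fold lower level from 64 and 9 estimated reads. Dpep2, a dipeptidase that converts leukotriene D4 to E4, had 5.13 and 2.21 FPKM, and Ggt1, which converts leukotriene C4 to D4, had 1.504 and 0.687 FPKM. Ggt5, its relative with the same activity on leukotriene C4, had 1.17 and 1.88 FPKM, a ratio of 1.61 (interval 1.19 to 2.2004) that did not pass the rule. Cyp4f18, which inactivates leukotriene B4, had 1.498 FPKM in WT and was listed at 0 in PU.1-/-. Tbxas1, the thromboxane synthase of platelets and macrophages, had 0.978 FPKM in WT and was likewise listed at 0. Pla2g7, a secreted enzyme that degrades platelet-activating factor, was the most abundant of the 6, at 36.9 FPKM in WT and 10.3 in PU.1-/-, a 3.57-fold lower level (interval 3.14 to 4.07). The higher gene was Akr1b3, an aldose reductase that can also make prostaglandin F2 alpha, listed at 0 in WT and at 2.89 FPKM in PU.1-/-. It belongs to a family of close paralogs between which reads could be divided, so this value is uncertain.

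**Figure D3:**
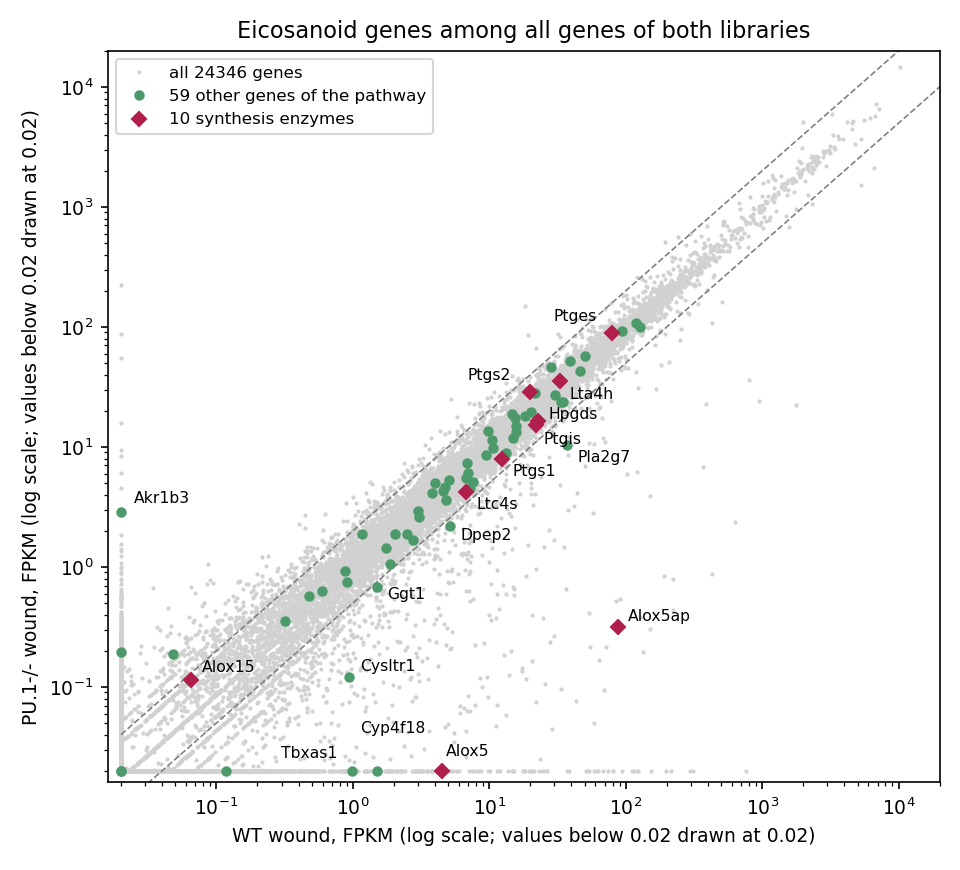
FPKM in WT (x axis) against PU.1-/- (y axis), both on log axes, for all 24346 genes (grey), the 59 other genes of the pathway (green) and the 10 synthesis enzymes (red), with dashed lines at a 2-fold difference and values below 0.02 FPKM drawn at 0.02. Most coloured points above 1 FPKM lie between the lines, while Alox5ap, Alox5 and the 6 lower pathway genes lie below them and Akr1b3 lies above. The other coloured points outside the lines or at the edges were too low to be counted.

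Among the phospholipases A2, which release arachidonic acid, the transcripts of at least 10 FPKM other than Pla2g7 differed little. Pla2g4a, the cytosolic phospholipase A2 that supplies both branches, had 15.7 FPKM in WT and 14.9 in PU.1-/-, a ratio of 0.951 (interval 0.848 to 1.07). Among the 17 phospholipase genes Pla2g7 alone passed the rule. Below 10 FPKM, Pla2g15 had a ratio of 0.624 (interval 0.513 to 0.759) and Pla2g16 one of 0.677 (interval 0.575 to 0.796). The other detected phospholipases below 10 FPKM had intervals that held a ratio of 1. The epidermal enzyme Pla2g2f was the most abundant, at 119 and 109 FPKM. Pla2g4e and Pla2g4f, cytosolic relatives of Pla2g4a, had 20.2 and 19.6 FPKM and 10.7 and 9.76 FPKM, and the secreted Pla2g12a had 18.3 and 18.1 FPKM.
The lipoxygenases of the epidermis gave no counterpart to Alox5. Alox12b and Aloxe3, which build the skin barrier, had 50.5 and 57.3 FPKM and 10.5 and 11.5 FPKM. Alox8, an inducible enzyme of mouse skin, had 33.6 FPKM in WT and 23.8 in PU.1-/-, a ratio of 0.706 (interval 0.653 to 0.764). Alox12, the platelet-type enzyme, had 1.86 and 1.06 FPKM, a ratio of 0.568 (interval 0.385 to 0.832). Alox12e had 2.75 and 1.67 FPKM, a ratio of 0.609 (interval 0.431 to 0.864). The ratio of Alox12b was 1.13 (interval 1.06 to 1.21), and none of these lipoxygenases passed the 2-fold rule.
The remaining prostanoid synthases of at least 10 FPKM were between 85.5% and 132% of WT. Ptgds, the second prostaglandin D2 synthase, had 39.2 FPKM in WT and 51.7 in PU.1-/-, so that the synthases Hpgds and Ptgds of the same product lay on opposite sides of their WT level. Ptges3, a chaperone with prostaglandin E synthase activity, had 93.2 and 92.2 FPKM, and Ptges2 had 15.7 and 13.4 FPKM. Fam213b and Cbr1, which reduce prostaglandins or their precursors, had 46.1 and 42.8 FPKM and 30.4 and 27.1 FPKM.
Among the other leukotriene enzymes Dpep1, a dipeptidase related to Dpep2, had 28.2 FPKM in WT and 46.0 in PU.1-/-, and Mgst3, a glutathione transferase, had 128 and 99.7 FPKM. None of the 8 genes of breakdown and transport passed the rule. Slco2a1, the prostaglandin uptake carrier, had 21.7 and 28.2 FPKM, Abcc1, which exports leukotriene C4, had 15.02 and 11.9 FPKM, and Ptgr1, which inactivates leukotriene B4, had 13.2 and 8.98 FPKM. Zadh2, a prostaglandin reductase, had 15.3 and 17.4 FPKM.
Of the 15 receptor genes, 11 could be counted, and Cysltr1 alone passed the rule. Ltb4r1, the high-affinity receptor of leukotriene B4, had 34.6 FPKM in WT and 23.5 in PU.1-/-, a ratio of 0.679 (interval 0.597 to 0.768). The prostacyclin receptor Ptgir had 9.75 and 13.6 FPKM, and the prostaglandin F receptor Ptgfr had 14.7 and 18.8 FPKM. Over all 23 other pathway genes of at least 10 FPKM, 8 had a counting interval below a ratio of 1 and 7 had one above it, where the shares over all genes of this level with an interval were 28.6% and 28.7%.

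Markers of blood-derived cells fell with Alox5ap and Alox5, in lists of macrophages, neutrophils, mast cells and others. All 9 macrophage markers that could be counted were lower, with Adgre1, C1qa, C1qb, C1qc and Tyrobp listed at 0. The whole list summed to 720 FPKM in WT and 5.74 in PU.1-/-. Cx3cr1, also listed at 0 in PU.1-/-, had only 0.0813 FPKM in WT and was too low to be counted. Of the 10 mast cell markers 9 were lower, with sums of 752 and 14.2 FPKM and Mcpt4, Tpsab1, Fcer1a, Ms4a2 and Mrgprb1 at 0. Kit, which melanocytes also express, was the exception, at 8.08 and 5.77 FPKM. Of 8 neutrophil markers that could be counted 7 were lower, with sums of 12529 and 3676 FPKM and Ngp, Retnlg and Csf3r at 0. The exception was Cxcr2, at 11.2 and 7.17 FPKM. The neutrophil sums were carried by S100a8, at 6600 and 2129 FPKM, and S100a9, at 5311 and 1516 FPKM. The cells that hold the S100a8 and S100a9 transcripts in either wound were not identified here. Ngp and Retnlg, listed at 0 in PU.1-/-, had 311 and 215 FPKM in WT.
Eosinophil and basophil markers were scarce in both wounds, with sums of 4.54 and 0.264 FPKM, and 2 of the 3 that could be counted were lower. Dendritic and Langerhans cell markers were lower in 3 of 4 cases and T cell markers in 3 of 5. Their sums, 88.9 and 75.4 FPKM and 118 and 167 FPKM, were carried by Epcam and Thy1, which epithelial and stromal cells also express. Among platelet and megakaryocyte markers Pf4 and Ppbp were lower, while Itga2b had 3.19 and 3.83 FPKM and Gp1bb had 5.25 and 4.99 FPKM. The part of each of these cell types in the values of Alox5ap, Alox5 and the other enzyme genes was not tested.
Markers of the resident tissue did not move this way. Of 10 fibroblast markers Pi16 alone was lower, and the list had a median log2 ratio of 0.25. The 10 keratinocyte markers had a median of 0.20 with none past the rule, and the 10 endothelial markers a median of 0.15 with Vwf higher. The 7 countable enzyme genes other than Alox5ap and Alox5 had log2 ratios from -0.69 to 0.51. Of the 30 fibroblast, keratinocyte and endothelial markers, 28 lay between -0.25 (Cldn5) and 0.61 (Krt15), with Pi16 at -1.18 and Vwf at 1.06 outside. Ltc4s, Ptgs1, Ptgis and Hpgds lay below all of these markers but Pi16, and Ptges, Ptgs2 and Lta4h lay among the 28. The counting interval of Ltc4s held a ratio of 1. The pericyte and smooth muscle markers, not among the 30, reached down to -0.50 (Cnn1), below Hpgds at -0.46.

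**Figure D4:**
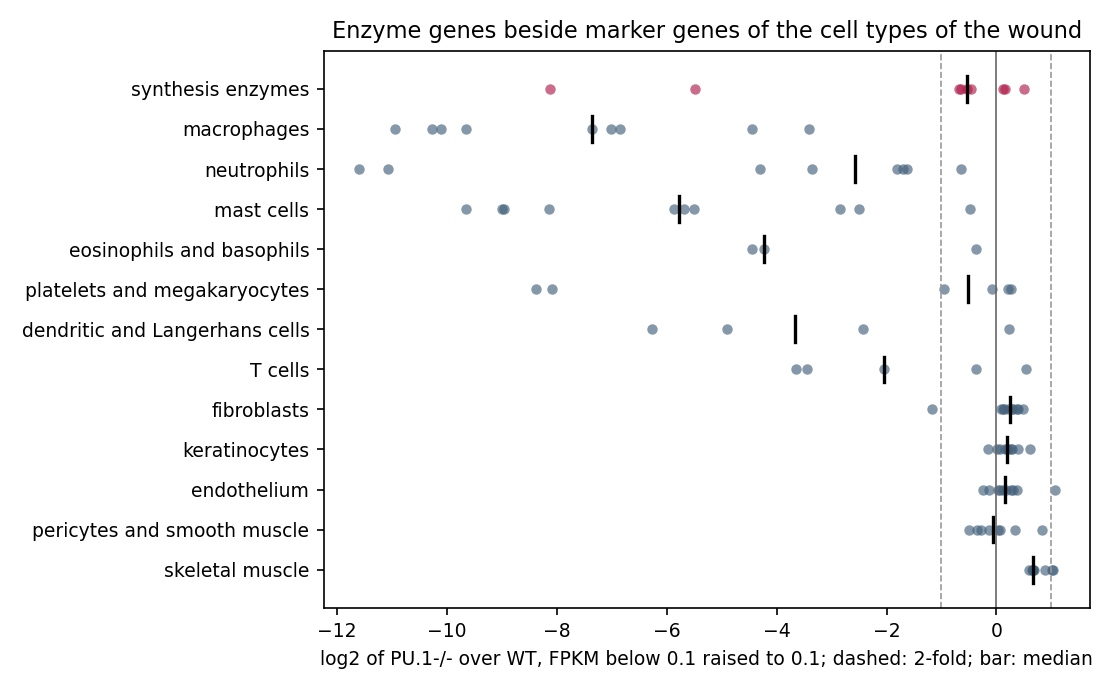
Log2 ratio of PU.1-/- over WT (FPKM below 0.1 raised to 0.1) for each countable gene of the synthesis enzymes (red) and of 12 marker lists (blue), with a bar at each median and dashed lines at a 2-fold difference. Alox5ap and Alox5, whose PU.1-/- value is the floor, lie in the range of the macrophage, neutrophil and mast cell markers. Alox5 also lies in the range of the dendritic cell markers. Alox5ap lies between the platelet markers Pf4 (-8.08) and Ppbp (-8.37). The 4 other countable platelet markers lie from -0.96 to 0.26. The other 7 enzyme genes shown lie between -0.69 and 0.51.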

How the data were processed

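As the study's methods state, the authors made stranded mRNA libraries, read 75 bases from one end, used CASAVA 1.8.2 for base calls, and obtained FPKM on mm10 with Cuffnorm 2.2.1, which also scales the libraries to each other. The labels list 1 WT and 1 PU.1-/- library. The submitters' processing notes name TopHat2 2.1.1, Bowtie2 2.2.8, SAMtools 0.1.18 and Cuffdiff 2.2.1. Annotation, read filters and use of strand: not given in the sources used here. Deposited FPKM values were compared without a test.

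Depth was estimated, since low FPKM values move in steps of whole reads. FPKM was multiplied by transcript length less 200 nt (longest GENCODE M21 transcript linked to RefSeq), and the step common to 15463 single-transcript genes was taken as 1 read. Of 2783 values between 1 and 5 reads, 67.3% lay within 0.05 of a whole number, so read numbers are approximate. The 95% intervals are exact binomial (Clopper-Pearson) for ratios between libraries, exact Poisson for levels and normal on the log scale for ratios between genes, and cover counting error only.

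Floors, pseudocounts, scalings, filters and folds were varied. Members and gene lists were chosen with earlier results of these data known. Named are all members, Spi1, pathway genes of at least 1 FPKM that passed the 2-fold rule or reached 10 FPKM, the 3 genes nearest to Alox5ap, and markers at 0 or of high level. Cysltr1, Tbxas1, Ggt5, Alox12, Cxcr2, Kit, Itga2b, Gp1bb, Dcn, Pi16, Vwf, Cldn5, Krt15, Cnn1, Cma1, Cpa3 and Ndufs5 fall outside this rule and were chosen after their values were seen. Pla2g15, Pla2g16 and Alox12e were added in the same way. Coordinates are from RefSeq on GRCm38. Ly6g, Trac and Trbc2 had no row under these symbols. Python 3.11.15 was used (pandas 2.3.3, scipy 1.17.1, numpy 2.4.6, matplotlib 3.10.9), and the functions were tested on simulated data.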

Additional observations from a re-analysis of the deposited data

How the results depend on the processing

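No paired analysis was possible because each genotype has 1 library. Both lower members, Alox5ap and Alox5, passed the rule under every floor, pseudocount and scaling tried and at a 3-fold threshold. Keeping genes of at least 5 FPKM left 1 lower member, as Alox5 lies under that level. A 1.5-fold threshold gave 4, the other two being Ptgs1 and Ltc4s, where 11.2% of all countable genes were lower. The median log2 ratio of the members stayed between -0.53 and -0.45, also without Alox15, an alternative chosen after the data were seen. No member changed sign, though Alox15 came to a log2 ratio of 0 with a floor of 1 FPKM. The log2 ratio of Alox5ap ranged from -8.12 to -6.07 and that of Alox5, whose PU.1-/- value is the floor itself, from -8.81 to -2.17.

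The counts over the 59 other pathway genes depend more on low values. With a floor of 1 FPKM or a pseudocount of 1 FPKM 2 were lower in place of 6, and with genes of at least 5 FPKM 2 were lower and 0 higher. With a floor of 0.01 FPKM 3 were higher in place of 1. With equal FPKM sums 6 were lower and 2 higher. At 1.5-fold 5 were higher and 9 lower, where 8.27% of all countable genes were higher and 11.2% lower. Shares over all genes under the other floors, the pseudocount, the scaling and the 5 FPKM filter are not given here. The counts under these settings therefore describe the list alone. Genes below about 1 FPKM rest on few reads, and no spread between animals can be had from 1 library per genotype.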
